A study of Mus musculus with 14 samples.

Results

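Expression of 36 aminoacyl-tRNA synthetase genes was examined in mouse kidney cortex, 20 that encode the enzymes of the cytosol and 16 that encode those of mitochondria. The members were taken by gene name from a deposited table of 22007 gene IDs; all 36 had 1 row each, and all 36 passed the filter on low values. In mice with an active HIF1A transgene, Gars rose on both diets, and on the vitamin A deficient diet Cars, Tars and Wars rose and Farsb fell. The calls of Cars, Tars and Wars were lost without 2 libraries that stood apart (adjusted p of 0.122 to 0.166 by limma). With sequencing lane as a covariate 0 members were called on the deficient diet, against 1.35% of all genes called higher and 0.449% lower. Of the 16 mitochondrial members 5 fell on chow (Cars2, Iars2, Fars2, Lars2 and Sars2) and 3 on the deficient diet (Iars2, Lars2 and Rars2). Over all genes tested, 8.81% were called higher and 8.2% lower on chow, and 11.3% and 10.8% on the deficient diet. Without the 2 libraries that stood apart, Iars2 and Lars2 lost their calls on that diet (adjusted p of 0.235 and 0.214 by limma). Without scaling between libraries, only the chow call of Cars2 was kept among the mitochondrial calls. Leaving out 1 WT library (WT 3) ended all of these chow calls, and that of Gars. Lars2 was called higher, not lower, on the deficient diet in the authors' deposited table. No member was called for diet in either genotype, against 0.514% of all genes in wild-type mice and 0.155% in transgenic mice.

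Aminoacyl-tRNA synthetases join each amino acid to its tRNA, the step that fixes the genetic code. Mammalian cells keep a cytosolic set, 8 members of which sit in a multisynthetase complex, and a nuclear-encoded mitochondrial set that charges the tRNAs made from mitochondrial DNA. Many cytosolic synthetase genes are known targets of ATF4, the transcription factor of the integrated stress response, which binds C/EBP-ATF response elements. Mitochondrial synthetases are translated in the cytosol and imported, and the kidney cortex is rich in mitochondria because proximal tubules depend on oxidative metabolism.

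The TRACK mice carry GGT-HIF1A_M3, a constitutively active HIF1A, on the C57BL/6 background; GGT stands for the gamma-glutamyl transferase promoter, which is active in proximal tubule cells, so other cortex cells need not carry the active protein. The groups were TRACK on regular chow (4 libraries), WT on regular chow (3), TRACK-VAD on a vitamin A deficient diet (4) and WT-VAD, wild type on that diet (3). The diets began 2 weeks after weaning and organs were collected after 24 weeks. Per the labels each library is a biological replicate, here read as 1 mouse. The TRACK, WT and TRACK-VAD 1 to 3 libraries were in lane 5, and TRACK-VAD 4 and the WT-VAD libraries in lane 6.

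Values are deposited FPKM divided by a scale factor for each library (scaled FPKM); counts per library were not used and absolute depth is unknown. Between 11206 and 12277 genes per library reached 1 FPKM. Differences are log2 fold changes of scaled FPKM + 1, and a gene was called where limma's Benjamini-Hochberg adjusted p over 12251 genes was at or under 0.05. TRACK-VAD 1 and 2 stood apart from the other libraries: their values sloped with transcript length by −0.09 and −0.10, against −0.06 to 0.07 in the other 12, and correlations within TRACK-VAD were 0.957 to 0.991, against 0.988 to 0.992 within the other groups. Calls on the deficient diet are therefore given with and without them. Summed proximal tubule markers were 4330 to 4898 scaled FPKM in TRACK and 8072 to 10183 in WT, and 2540 to 5805 in TRACK-VAD and 7868 to 9306 in WT-VAD, with none of 15 at 0 in every library. Summed macrophage and dendritic cell markers (10 genes) were 406 to 516 in TRACK and 194 to 219 in WT, and 538 to 1366 in TRACK-VAD and 181 to 280 in WT-VAD. Summed tubular injury markers (10 genes) were 788 to 1107 in TRACK and 637 to 840 in WT, and 694 to 8584 in TRACK-VAD and 453 to 519 in WT-VAD. Without TRACK-VAD 1 and 2 the median log2 fold change on the deficient diet moved from −0.91 to −0.33 for proximal tubule markers. It moved from 2.10 to 0.92 for tubular injury markers and from 0.46 to 0.55 for endothelial markers. Calls with and without these 2 libraries therefore differ in marker levels too. On chow 7 of 14 tested proximal tubule markers fell, against 8.2% of all genes. On that diet 9 of 10 macrophage and dendritic cell markers and 5 of 6 endothelial markers rose, against 8.81%. Their part in the results on the synthetases was not tested, and in bulk tissue fewer cells of a type and less RNA per cell cannot be told apart.

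In WT cortex the cytosolic members averaged 10.99 to 188 scaled FPKM, with a median of 24.9, and the mitochondrial members 1.90 to 35.8, with a median of 12.4. Qars, the glutaminyl-tRNA synthetase, stood highest at 188 ± 9.30 (SD, n = 3), and Sars, which charges serine tRNAs, followed at 100.2 ± 6.91. Farsa, the alpha subunit of phenylalanyl-tRNA synthetase, was the lowest cytosolic member at 10.99 ± 0.513, while Farsb, the beta subunit of the same enzyme, averaged 44.2 ± 5.35. Rars2 led the mitochondrial members at 35.8 ± 3.06, and its WT libraries overlapped in level with those of Iars2. Mars2, the mitochondrial methionyl-tRNA synthetase, was lowest at 1.90 ± 0.00876. FPKM are per transcript length, but the authors' deposited mean counts over transcript length give other ranks for some members. Those counts are pooled over samples, and the FPKM ranked beside them are means over all 14 libraries, not WT alone. The length used is that of each gene's longest annotated transcript. By count over length, Sars, Nars, Dars and Gars stood above Qars, which ranked 6 of 36 in place of 1, and Mars2 was lowest by both. The widest gap was that of Lars2. Lars2, the mitochondrial leucyl-tRNA synthetase, had a mean normalized count of 24450 in the authors' deposited table, and the ratio of that count to its FPKM times transcript length in kilobases was 566, against 6.51 to 39.9 in the other 35 members. It ranked 27 of 36 by mean FPKM and 1 by count over length, so the 2 deposited sources disagree on the level of Lars2.

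**Figure D1:**
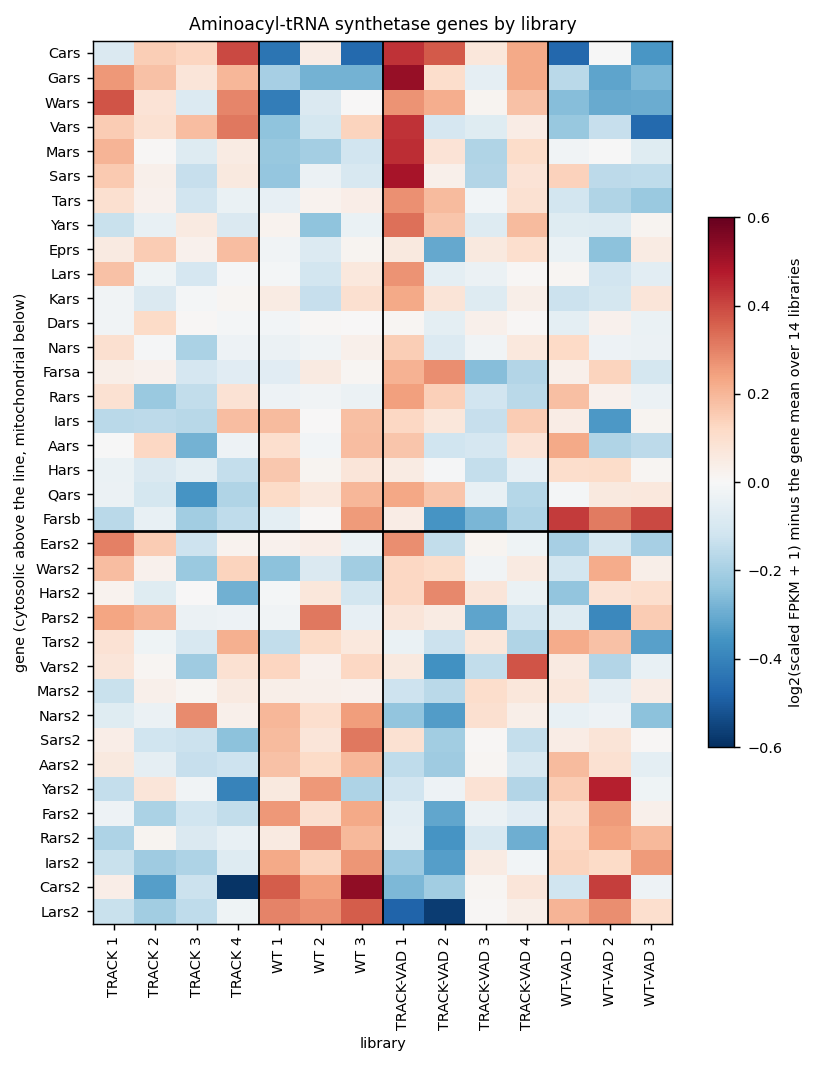
Log2(scaled FPKM + 1) of each of the 36 genes minus that gene's mean over the 14 libraries, with genes down the page (cytosolic above the line) and libraries across, grouped as TRACK, WT, TRACK-VAD and WT-VAD; red is above and blue below the gene's mean. The upper rows (Cars, Gars, Wars) are redder in TRACK and TRACK-VAD than in their WT groups, the lowest rows (Fars2, Rars2, Iars2, Cars2, Lars2) are bluer, and TRACK-VAD 1 and 2 show the deepest blue for Lars2, at 7.63 and 7.11 scaled FPKM.

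The first question was what the transgene changed in mice on chow. Of the 20 cytosolic members 1 rose and 0 fell, and of the 16 mitochondrial members 0 rose and 5 fell. Over all genes tested, 8.81% were called higher and 8.2% lower. The median log2 fold change was 0.01 for cytosolic members, −0.15 for mitochondrial members and 0.01 for all genes; without scaling between libraries all genes shifted to 0.16, and the medians became 0.17 for cytosolic and 0.02 for mitochondrial members, so the mitochondrial median lies below that of all genes under both but changes sign. In 3 cytosolic members (Eprs, Gars and Mars) every TRACK library was above every WT library, in 2 (Hars and Qars) below, and in 7 mitochondrial members (Aars2, Cars2, Fars2, Iars2, Lars2, Rars2 and Sars2) below. Among all genes 19.2% were higher and 18.8% lower in this way.

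Gars, which charges glycine tRNAs and serves both the cytosol and mitochondria, was the cytosolic member called on chow. It had 46.3, 43.5, 40.4 and 44.3 scaled FPKM in TRACK libraries and 33.3, 31.3 and 31.4 in WT libraries. Every TRACK library is above every WT library. The log2 fold change was 0.43 (SE 0.11), with an adjusted p of 0.0172 by limma. Leaving out WT 2 or WT 3 raised that adjusted p to 0.0517 or 0.0681, at log2 fold changes of 0.42 each. Gars lies at chr6:55038007-55079500 on the plus strand (GRCm38 coordinates in the deposited table). The 250 bases before its RefSeq start (chr6:55037751-55038000, plus strand, GRCm38.p6) are shown because they hold a match to the C/EBP-ATF response element letters TGATGNAA, read on the opposite strand and printed in capitals:
Gars: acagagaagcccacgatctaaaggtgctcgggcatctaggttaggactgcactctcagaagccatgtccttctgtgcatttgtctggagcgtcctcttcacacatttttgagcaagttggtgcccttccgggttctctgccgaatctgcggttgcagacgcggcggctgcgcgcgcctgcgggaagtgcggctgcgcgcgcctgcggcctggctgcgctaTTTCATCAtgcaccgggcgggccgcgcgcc

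Cars, the cysteinyl-tRNA synthetase, had 13.1, 15.6, 15.4 and 18.7 scaled FPKM in TRACK and 10.04, 14.5 and 9.86 in WT libraries. WT 2 lies inside the TRACK range, and the log2 fold change of 0.43 (SE 0.15) missed the threshold by limma (adjusted p = 0.0708). Wars, the tryptophanyl-tRNA synthetase, which is also known as an interferon-induced gene, had 20.3, 16.3, 14.5 and 19.1 in TRACK and 11.3, 14.4 and 15.4 in WT libraries. WT 3 lies above TRACK 3, and the log2 fold change was 0.34 (SE 0.12, adjusted p = 0.0715 by limma). Qars was at 168, 160, 135 and 152 scaled FPKM in TRACK and at 187, 180 and 198 in WT. Every TRACK library is lower than every WT library, yet the log2 fold change of −0.29 (SE 0.10) had an adjusted p of 0.0651 by limma. The other 16 cytosolic members lay between −0.21 (Farsb) and 0.26 (Vars) on the log2 scale.

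Cars2, the mitochondrial cysteinyl-tRNA synthetase, showed the largest fold change of the 36 members on chow. It had 10.3, 7.75, 9.05 and 6.31 scaled FPKM in TRACK and 13.2, 12.1 and 14.9 in WT libraries, without overlap. The log2 fold change was −0.63 (SE 0.16, adjusted p = 0.0162 by limma), opposite in sign to the 0.43 of the cytosolic Cars, which was not called. Iars2, which charges isoleucine tRNAs, had 26.4, 25.02, 25.5 and 27.5 in TRACK and 34.3, 32.0 and 35.1 in WT. All TRACK libraries are lower, with a log2 fold change of −0.36 (SE 0.09, adjusted p = 0.0163). The 11 mitochondrial members not called lay between −0.26 (Rars2) and 0.21 (Wars2).

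Fars2, the mitochondrial phenylalanyl-tRNA synthetase, had 25.6, 22.8, 24.0 and 23.5 scaled FPKM in TRACK and 31.5, 28.0 and 30.8 in WT, a log2 fold change of −0.32 (adjusted p = 0.0245 by limma). Lars2 had 9.98, 9.41, 9.82 and 10.8 in TRACK and 13.8, 13.5 and 14.5 in WT, a log2 fold change of −0.44 (adjusted p = 0.039). Sars2, the mitochondrial seryl-tRNA synthetase, had 5.29, 4.64, 4.60 and 4.17 in TRACK and 5.99, 5.43 and 6.63 in WT, a log2 fold change of −0.31 (adjusted p = 0.0444). In each of these genes the TRACK libraries are lower and the groups do not overlap. Without scaling between libraries only Cars2 of the mitochondrial members was still called (log2 fold change −0.47), and the log2 fold changes of Iars2, Fars2, Lars2 and Sars2 were −0.19, −0.14, −0.28 and −0.16, with adjusted p-values of 0.0713 to 0.293 by limma. In the authors' deposited table Lars2 had a log2 fold change of −0.32 with an adjusted p of 0.495, while Cars2, Iars2, Fars2 and Sars2 were lower there with adjusted p-values between 0.000121 and 0.00284. Without WT 3, 0 of the 36 members were called by limma, against 8.3% of all genes, while 9 had an unadjusted p under 0.05, against 24.3%. Without WT 1 only Gars was called, against 8.21% of all genes; the log2 fold changes of the 5 mitochondrial members then lay between −0.64 and −0.24. At an unadjusted p under 0.05 with all libraries there were 5 cytosolic and 7 mitochondrial members, or 12 of 36, against 32.5% of all genes. The authors' deposited table called 2 cytosolic members higher and 3 lower and 7 mitochondrial members lower on chow, against 11.8% of all its genes higher and 12.1% lower.

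**Figure D2:**
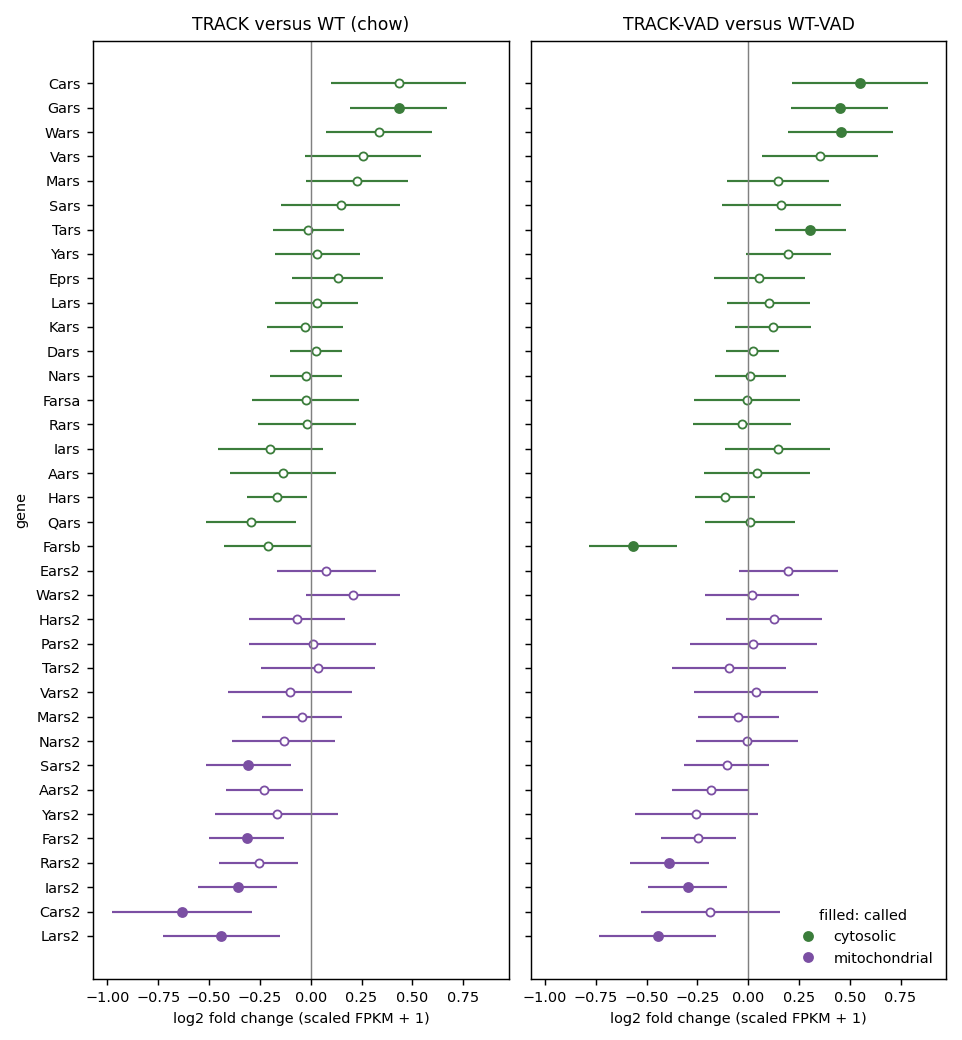
Log2 fold changes of scaled FPKM + 1 for each gene (down the page, cytosolic in green, mitochondrial in purple) in TRACK over WT on the left and TRACK-VAD over WT-VAD on the right; bars are 95% confidence intervals from limma and filled points were called. Cytosolic points spread on both sides of 0 with Gars filled in both panels, and filled mitochondrial points all lie left of 0; without scaling the median of mitochondrial genes moves to 0.02 and 0.08.

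The same genotype contrast was then made in mice on the vitamin A deficient diet. Its group means share no library with those on chow, but the spread of each gene was estimated from all 14 libraries. The p-values of these contrasts are therefore not independent. Of the 20 cytosolic members 4 rose (Cars, Gars, Tars and Wars) and 1 fell (Farsb), and of the 16 mitochondrial members 0 rose and 3 fell (Iars2, Lars2 and Rars2), against 11.3% of all genes called higher and 10.8% lower. The median log2 fold change was 0.11 for cytosolic and −0.10 for mitochondrial members, against −0.01 for all genes; without scaling these became 0.31, 0.08 and 0.18, so the mitochondrial median changes sign but stays below that of all genes. The authors' deposited table called 4 cytosolic members higher and 1 lower and 1 mitochondrial member higher and 5 lower, against 14.7% and 14% of all its genes. Gars, Iars2 and Lars2 were called on both diets, each in the same direction. Without TRACK-VAD 1 and 2, 3 of the 36 members were called (Gars higher, Farsb and Rars2 lower), against 6.03% of all genes higher and 4.56% lower, and the medians were 0.04 for cytosolic and −0.09 for mitochondrial members. Groups did not overlap in 5 cytosolic members that were higher (Cars, Gars, Tars, Vars and Wars), in Farsb, which was lower, and in 4 mitochondrial members that were lower (Fars2, Iars2, Lars2 and Rars2); among all genes 14.6% were higher and 13.9% lower in this way.

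Cars had 19.2, 18.3, 14.7 and 16.5 scaled FPKM in TRACK-VAD and 9.81, 13.9 and 10.7 in WT-VAD libraries. All TRACK-VAD libraries are higher, and the log2 fold change was 0.55 (SE 0.15, adjusted p = 0.0243 by limma), or 0.42 with an adjusted p of 0.166 without TRACK-VAD 1 and 2. Gars had 55.6, 41.4, 36.9 and 45.1 in TRACK-VAD and 34.2, 30.6 and 31.7 in WT-VAD. TRACK-VAD 1 is the highest of all 14 libraries for Gars, and TRACK-VAD 3 comes closest to the WT-VAD libraries. The log2 fold change was 0.45 (SE 0.11, adjusted p = 0.0133 by limma), and 0.33 with an adjusted p of 0.0418 without TRACK-VAD 1 and 2. Without WT-VAD 2 it was 0.42 with an adjusted p of 0.0512. With only the compared groups fitted the calls of Cars and Gars were lost (adjusted p = 0.0634 and 0.091 by limma).

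Wars had 18.8, 18.1, 15.6 and 17.6 scaled FPKM in TRACK-VAD and 12.8, 12.3 and 12.4 in WT-VAD, without overlap. Its log2 fold change was 0.45 (SE 0.12, adjusted p = 0.0187 by limma), and 0.38 with an adjusted p of 0.122 without TRACK-VAD 1 and 2. Tars, which charges threonine tRNAs, had 17.5, 16.5, 14.1 and 15.3 in TRACK-VAD and 13.2, 12.5 and 12.1 in WT-VAD. All TRACK-VAD libraries are again higher, with a log2 fold change of 0.30 (SE 0.08, adjusted p = 0.0193), and of 0.21 with an adjusted p of 0.144 without those 2. The call of Tars was also lost with only the compared groups fitted (adjusted p = 0.102 by limma). On chow the log2 fold change of Tars was −0.01, and the genotype by diet interaction of 0.32 did not pass (adjusted p = 0.546). Farsb had 43.3, 32.6, 34.5 and 36.7 in TRACK-VAD and 56.3, 52.2 and 55.5 in WT-VAD. Every TRACK-VAD library is below every WT-VAD library, with a log2 fold change of −0.57 (SE 0.10, adjusted p = 0.00261), or −0.61 with an adjusted p of 0.002107 without those 2 libraries. Its partner subunit Farsa had a log2 fold change of −0.01 (95% confidence interval −0.27 to 0.26). The 15 cytosolic members not called lay between −0.12 (Hars) and 0.35 (Vars), and Kars, which like Gars serves both compartments, was at 0.12.

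Rars2, the mitochondrial arginyl-tRNA synthetase, had 30.3, 24.4, 29.3 and 25.5 scaled FPKM in TRACK-VAD and 34.4, 37.4 and 36.2 in WT-VAD. All TRACK-VAD libraries are lower, and the log2 fold change of −0.39 (SE 0.09, adjusted p = 0.0103 by limma) was −0.38 with an adjusted p of 0.0239 without TRACK-VAD 1 and 2. The call was lost with only the compared groups fitted (adjusted p = 0.0728) and without scaling, where the log2 fold changes of Rars2, Lars2 and Iars2 were −0.18, −0.25 and −0.0939, with adjusted p-values of 0.191, 0.078 and 0.343. Lars2 had 7.63, 7.11, 11.1 and 11.3 in TRACK-VAD and 12.8, 13.6 and 11.9 in WT-VAD. The groups do not overlap, but TRACK-VAD 1 and 2 are far lower than TRACK-VAD 3 and 4, and the log2 fold change of −0.44 (adjusted p = 0.0317) became −0.17 with an adjusted p of 0.214 without them. In the authors' deposited table Lars2 had the opposite direction, a log2 fold change of 0.93 with an adjusted p of 0.0144. Iars2 had 24.9, 22.9, 30.1 and 28.8 in TRACK-VAD and 32.0, 31.6 and 34.97 in WT-VAD. Here too the libraries TRACK-VAD 1 and 2 are lowest, and the log2 fold change of −0.30 (adjusted p = 0.0328) became −0.15 with an adjusted p of 0.235 without them. The 13 mitochondrial members not called lay between −0.26 (Yars2) and 0.20 (Ears2).

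Lane divides these groups, since all WT-VAD libraries and 1 of 4 TRACK-VAD libraries were in lane 6. With lane as a covariate 0 of the 36 members were called by limma on the deficient diet, while 5 had an unadjusted p under 0.05, against 13.2% of all genes. Of all genes 1.35% were then called higher and 0.449% lower. Lane 6 holds 1 TRACK-VAD library, too few for a test within that lane. All TRACK and WT libraries on chow shared lane 5, and with lane 5 libraries alone 5 members were called in that contrast, Sars2 missing the threshold.

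**Figure D3:**
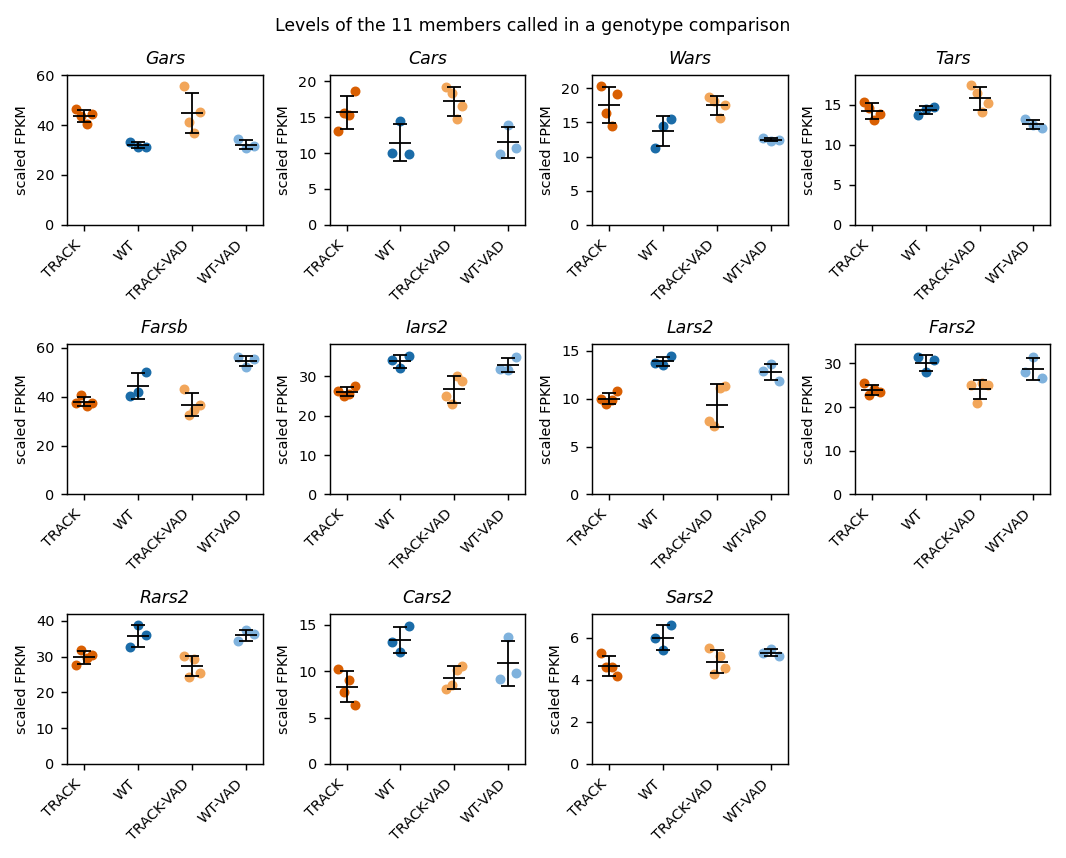
Scaled FPKM (vertical axes from 0) of the 11 genes called in TRACK versus WT or TRACK-VAD versus WT-VAD; each point is 1 library, and lines and bars are the mean and SD of each group (4 TRACK, 3 WT, 4 TRACK-VAD, 3 WT-VAD). Gars lies at 36.9 to 55.6 in both transgenic groups and at 30.6 to 34.2 in both WT groups, and Lars2 shows 2 low TRACK-VAD points, at 7.63 and 7.11.

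Averaged over both diets, which pools 8 TRACK and 6 WT libraries, 4 cytosolic members rose (Cars, Gars, Vars and Wars), 2 fell (Farsb and Hars) and 7 mitochondrial members fell (Aars2, Cars2, Fars2, Iars2, Lars2, Rars2 and Sars2). The background for this contrast was 18% of all genes called higher and 17.6% lower. Vars, the valyl-tRNA synthetase, had a log2 fold change of 0.31 (SE 0.09, adjusted p = 0.022 by limma). Aars2, the mitochondrial alanyl-tRNA synthetase, had 4.56, 4.13, 3.85 and 3.896 scaled FPKM in TRACK and 5.03, 4.77 and 5.12 in WT, and 3.80, 3.60, 4.38 and 3.99 in TRACK-VAD and 5.08, 4.68 and 4.12 in WT-VAD. WT-VAD 3 lies among the transgenic libraries of that diet, and the averaged log2 fold change was −0.21 (SE 0.06, adjusted p = 0.0193). Hars, the histidyl-tRNA synthetase, fell by 0.14 on the log2 scale (adjusted p = 0.0367 by limma), but without scaling its log2 fold change was 0.05 and not called. Without scaling the averaged calls of Aars2 (log2 fold change −0.0482), Sars2 (−0.0428), Fars2 (−0.0928), Rars2 (−0.13), Cars2 (−0.23) and Farsb (−0.20) were lost as well, with adjusted p-values of 0.0594 to 0.651 by limma. The remaining 14 cytosolic and 9 mitochondrial members were not called on average.

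The transcripts of the 2 compartments were also set against each other within each library, where the scale factor of the library cancels apart from the pseudocount. The mean log2 level of the 20 cytosolic members exceeded that of the 16 mitochondrial members by 1.48, 1.496, 1.45 and 1.58 in TRACK and by 1.27, 1.25 and 1.33 in WT libraries. On chow the groups do not overlap. On the deficient diet the difference was 1.75, 1.66, 1.36 and 1.51 in TRACK-VAD and 1.40, 1.26 and 1.36 in WT-VAD libraries. TRACK-VAD 1 and 2 are the highest, and TRACK-VAD 3 falls within the WT-VAD range.

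For 13 amino acids both enzymes are among the members, and the cytosolic minus the mitochondrial log2 level can be compared within a library. The mean difference was larger in TRACK than in WT for 11 of these 13 pairs and larger in TRACK-VAD than in WT-VAD for 12 of them, or 10 without TRACK-VAD 1 and 2. For cysteine, Cars minus Cars2 averaged 0.84 ± 0.46 in TRACK and −0.22 ± 0.41 in WT, and 0.82 ± 0.32 in TRACK-VAD and 0.08 ± 0.05 in WT-VAD. For leucine, Lars minus Lars2 averaged 0.27 ± 0.13 in TRACK and −0.20 ± 0.05 in WT, and 0.43 ± 0.40 in TRACK-VAD and −0.12 ± 0.13 in WT-VAD (SD, with 4 transgenic and 3 WT libraries per diet). In both pairs every transgenic library lies above every WT library of its diet. All libraries separated in this way in 6 of the 13 pairs on chow and in 3 on the deficient diet. Among single genes, 19.2% were higher and 18.8% lower without overlap on chow, and 14.6% and 13.9% on the deficient diet. The share over pairs of other genes is not known, so the counts of pairs are a description only. Cysteine and leucine are the only pairs that separate on both diets. Without TRACK-VAD 1 and 2 the TRACK-VAD means were 0.55 for cysteine and 0.0953 for leucine. Since the level of Lars2 is in doubt, the sign of its difference from Lars is not read as an order of the 2 enzymes. The authors' deposited table gave Lars2 the opposite direction on the deficient diet, so the genotype change of this pair on that diet is in doubt as well. Hars and Hars2, whose loci overlap by 198 bases on opposite strands, were the pair in which the mean difference was smaller on both diets, at 0.33 ± 0.10 in TRACK and 0.43 ± 0.14 in WT.

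**Figure D4:**
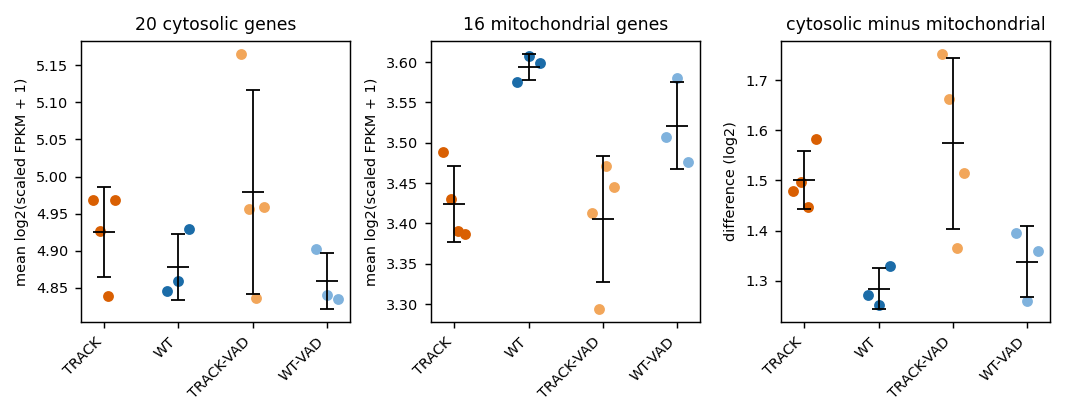
Mean log2(scaled FPKM + 1) over the 20 cytosolic genes (left), over the 16 mitochondrial genes (middle) and their difference (right); each point is 1 library and lines and bars are the mean and SD of a group. The vertical axes do not start at 0. The difference is 1.45 to 1.58 in TRACK and 1.25 to 1.33 in WT, and 1.36 to 1.75 in TRACK-VAD and 1.26 to 1.40 in WT-VAD.

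No member was called in WT-VAD versus WT or in TRACK-VAD versus TRACK by limma, where 0.514% and 0.155% of all genes were called; the authors' deposited tables also called 0 members in these comparisons, against 2.41% and 1.35% of all their genes. At an unadjusted p under 0.05 there were 2 members in WT-VAD versus WT (Farsb and Nars2) and 2 in TRACK-VAD versus TRACK (Qars and Yars), against 10.2% and 10.5% of all genes. Farsb, with 56.3, 52.2 and 55.5 scaled FPKM in WT-VAD and 40.2, 42.1 and 50.3 in WT libraries, had the lowest adjusted p of these contrasts, 0.292 at a log2 fold change of 0.31. Every WT-VAD library is above every WT library, as in 9.37% of all genes, and the 2 groups were in different lanes, so diet and lane cannot be told apart there. Log2 fold changes of the 36 members lay between −0.29 and 0.31 for WT-VAD versus WT and between −0.17 and 0.21 for TRACK-VAD versus TRACK. The genotype by diet interaction also called 0 members by limma, against 0.00816% of all genes, and 2 cytosolic members (Farsb and Tars) had an unadjusted p under 0.05, against 8.08% of all genes. For Gars the interaction was 0.02 (95% confidence interval −0.32 to 0.35).

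Of the 20 cytosolic members, 12 are often listed as ATF4 targets. On chow 1 of these 12 rose (Gars) and 0 fell, against 8.81% of all genes called higher. The median log2 fold change of the 12 was 0.08. Of the 8 others 0 were called, with a median of −0.03. On the deficient diet 4 of the 12 rose, 0 fell and all 12 had a log2 fold change above 0, with a median of 0.15; of the 8 others 0 rose and 1 fell (Farsb), with a median of 0.00. The share of all genes called higher there was 11.3%. Without TRACK-VAD 1 and 2, 1 of the 12 was called higher (Gars), against 6.03% of all genes. Of the 12, 11 were then above 0, with a median of 0.10, and the median of the 8 others was −0.16. With lane as a covariate 0 of the 12 were called, against 1.35% of all genes called higher. The list was chosen with earlier results of these libraries known. The 8 enzymes of the multisynthetase complex and its 3 scaffold genes (Aimp1, Aimp2 and Eef1e1) had 0 called on either diet. Of all genes 8.81% were called higher and 8.2% lower on chow, and 11.3% and 10.8% on the deficient diet. With so few genes, the count of 0 is not read as a trait of the complex.

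ATF4 response genes outside the family were higher in most cases. Of 27 genes 25 were tested, and 16 rose and 1 fell on chow, against 8.81% and 8.2% of all genes. The median log2 fold change of the 25 tested was 0.87. On the deficient diet 15 rose and 0 fell (11.3% and 10.8% of all genes), with a median of 0.72. Without TRACK-VAD 1 and 2, 11 of 24 tested rose and 1 fell (6.03% and 4.56% of all genes), with a median of 0.43. With lane as a covariate 5 of 25 rose, against 1.35% of all genes. Atf4 itself had 64.5, 55.1, 54.3 and 63.1 scaled FPKM in TRACK and 29.4, 38.4 and 31.6 in WT, a log2 fold change of 0.82 (SE 0.18, adjusted p = 0.00707 by limma) without overlap. In TRACK-VAD it had 70.5, 74.1, 52.3 and 52.4, against 31.2, 54.7 and 41.1 in WT-VAD, where WT-VAD 2 lies above TRACK-VAD 3 and 4; the log2 fold change was 0.57 (SE 0.18, adjusted p = 0.0361 by limma), and 0.34 with an adjusted p of 0.276 without TRACK-VAD 1 and 2.

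The ATF4 response genes with the smallest adjusted p on chow changed far more than any synthetase. Aldh18a1, which starts proline synthesis from glutamate, averaged 20.8 ± 1.55 scaled FPKM in TRACK and 0.954 ± 0.554 in WT, a log2 fold change of 3.51 (adjusted p = 1.96e-07 by limma). Trib3, a pseudokinase induced by ATF4, averaged 10.4 ± 2.35 in TRACK and 0.598 ± 0.0576 in WT, a log2 fold change of 2.81. Stc2, which encodes the secreted glycoprotein stanniocalcin 2, and Ddit4 had log2 fold changes of 2.603 and 2.15. Against these, the highest log2 fold changes among synthetases called on either diet were 0.55 for Cars and 0.45 for Wars and Gars. Sesn2, which also responds to other stresses, fell by 1.03 on the log2 scale on chow.

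The promoters of the members were searched for the same 8 letters, TGATGNAA, on both strands, from 250 bases before to 50 after each RefSeq start (GRCm38.p6). A RefSeq window was matched for 27 members, not for Cars, Hars, Lars, Nars, Rars, Vars, Wars, Hars2 and Pars2. Per window, the letters were found in 3.97% of 32851 windows of the same length. A gene was counted if any of its windows held them, so shares of genes are not strictly like that share. The 27 matched members had 28 windows. Among genes with a window, 8 of 26 ATF4 response genes and 0 of 14 mitochondrial genes held the letters. So did 5 of 13 cytosolic genes (Aars, Gars, Iars, Tars and Yars). The 30 bases around 1 match in each gene are shown because these are the cytosolic genes that differ in this from the mitochondrial ones; capitals mark the match, and all are printed in the direction of the gene:
Aars chr8:111033840-111033869: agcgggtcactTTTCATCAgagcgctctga
Gars chr6:55037960-55037989: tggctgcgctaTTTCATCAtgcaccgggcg
Iars chr13:49682126-49682155: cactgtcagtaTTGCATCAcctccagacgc
Tars chr15:11399655-11399684: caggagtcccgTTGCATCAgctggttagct
Yars chr4:129189895-129189924: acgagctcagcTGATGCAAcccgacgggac
Counting from 1 at the RefSeq start, with −1 just before it, the capitals begin at 10 in Aars, −30 in Gars, 8 in Iars, −15 in Tars and 4 in Yars. Tars lies on the minus strand. Of these genes Gars rose on both diets and Tars on the deficient diet, and Aars, Iars and Yars were not called on either. A match of letters is a description of the sequence; binding was not measured.

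Genes that work with the mitochondrial members were examined as a list of 16 charging and translation factors. On chow 0 of these 16 rose and 5 fell (8.2% of all genes were called lower), with a median log2 fold change of −0.21. On the deficient diet 0 rose and 5 fell (10.8% of all genes were called lower), with a median of −0.21. Without scaling 1 fell on chow and 2 on the deficient diet, with medians of −0.0468 and −0.017. Without TRACK-VAD 1 and 2, 2 of the 16 fell on the deficient diet (against 4.56% of all genes), with a median of −0.15. With lane as a covariate 0 were called, against 0.449% of all genes called lower. Mrrf, the mitochondrial ribosome recycling factor, averaged 22.8 ± 2.64 scaled FPKM in TRACK and 31.6 ± 0.993 in WT, a log2 fold change of −0.46 (adjusted p = 0.0043 by limma). Tufm, the mitochondrial elongation factor Tu, averaged 53.1 ± 3.38 in TRACK and 68.8 ± 0.367 in WT, a log2 fold change of −0.37 (adjusted p = 0.00751). Gfm1, the mitochondrial elongation factor G, had a log2 fold change of −0.55 (adjusted p = 0.0161), and Gatb, a subunit of the amidotransferase that makes mitochondrial glutaminyl-tRNA, one of −0.45 (adjusted p = 0.033). Tufm, Gfm1 and Gatb fell on both diets, of which Gfm1 was still called on the deficient diet without TRACK-VAD 1 and 2 (log2 fold change −0.35) and on both diets without scaling. Mrrf had a log2 fold change of −0.07 on the deficient diet.

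Among all genes 8.81% were called higher and 8.2% lower on chow. On the cytosolic side, 2 of 14 translation factors rose and 0 fell on that diet, with a median of 0.01. They were Eif4ebp1, a repressor of cap-dependent initiation that ATF4 is known to induce, with a log2 fold change of 1.15, and Eef1b2, a subunit of elongation factor 1, with one of 0.51 (adjusted p = 0.00427 and 0.0343 by limma). Of 5 other genes of tRNA charging and transport 1 rose on chow: Xpot, which exports tRNAs from the nucleus, had 21.9, 24.4, 23.4 and 24.4 scaled FPKM in TRACK and 15.2, 15.2 and 15.2 in WT. All TRACK libraries are higher, with a log2 fold change of 0.60 (SE 0.10, adjusted p = 0.0013), and of 0.41 (adjusted p = 0.0115) on the deficient diet, or 0.54 without TRACK-VAD 1 and 2. Of 6 genes for the kinases of initiation factor 2 alpha and the subunits of its phosphatase 0 were called on chow, and Ppp1r15a, a phosphatase subunit induced by stress, rose on the deficient diet (log2 fold change 0.98, adjusted p = 0.00834 by limma, or 0.55 and 0.0329 without TRACK-VAD 1 and 2). Because Wars responds to interferon, 13 interferon response genes were also listed: 12 passed the filter, and 9 rose and 0 fell on chow, with summed levels of 81.9 to 103 scaled FPKM in TRACK and 44.2 to 57.9 in WT. On the deficient diet, where Wars was called, 11 rose and 0 fell, against 11.3% and 10.8% of all genes. The median log2 fold change was 1.26, with summed levels of 100.4 to 215 in TRACK-VAD and 49.6 to 60.3 in WT-VAD. Without TRACK-VAD 1 and 2, 11 rose as well, and with lane as a covariate 0 were called. The part of these genes in the values of Wars was not tested.

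**Figure D5:**
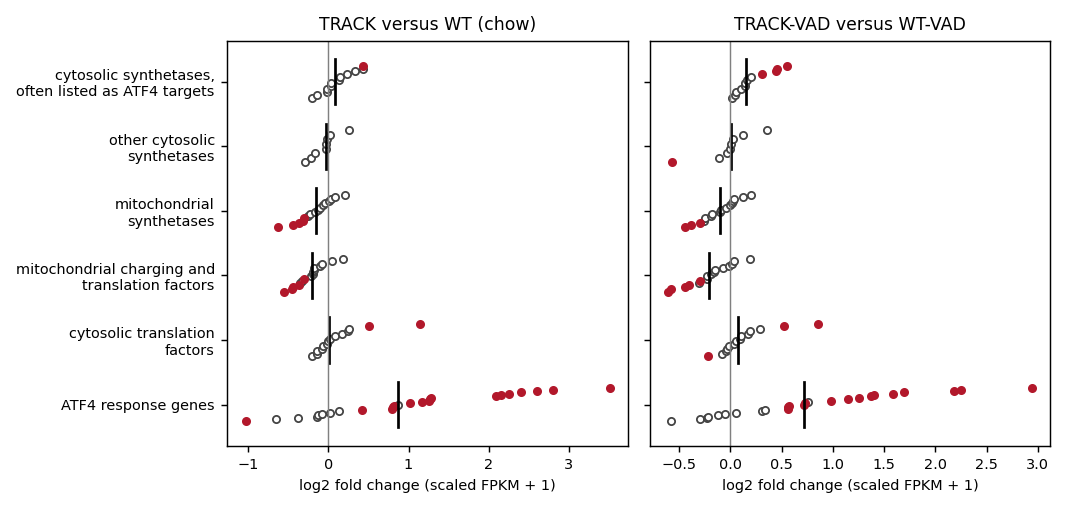
Log2 fold changes (scaled FPKM + 1) of single genes in 6 lists, TRACK over WT on the left and TRACK-VAD over WT-VAD on the right; filled red points were called, and the black line is the list's median. Medians of ATF4 response genes are 0.87 and 0.72, while those of mitochondrial synthetases and of mitochondrial charging and translation factors lie below 0, at −0.15 and −0.10 and at −0.21 on both diets; without scaling the mitochondrial synthetase medians are 0.02 and 0.08 and those of the factors −0.0468 and −0.017.

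Some members share bases with other genes in GENCODE vM21, and the use of strand in counting is not given in the sources used here. Among members called within a diet and other genes of the deposited table, Iars2 overlaps Rab3gap2 by 2034 bases, Farsb overlaps Sgpp2 by 2315, Cars2 overlaps Naxd by 984, Wars overlaps Wdr25 by 544 and Fars2 overlaps Lyrm4 by 116, all on the opposite strand. Annotated genes not analysed here overlap as well: on the same strand Gm48766 with Fars2 (4562 bases), 4833412K13Rik with Farsb (1479) and Gm22079 with Wars (106), and on the opposite strand Gm48765 with Fars2 (72313). Mars shares 68 bases with Ddit3, an ATF4 response gene whose log2 fold change on chow was 1.27. Values of these members may therefore hold reads of the overlapping gene.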

How the data were processed

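RNA of kidney cortex from 14 mice was sequenced as 51-base single-end reads per the labels' protocols. The authors deposited a gene table in FPKM (22053 rows), of which 6 columns belonged to no library here and were not used. In 6 further tables of comparisons the authors gave, per the file headers, each gene's mean normalized count (a signal), log2 fold change, standard error, test score and p-values. DESeq 1.32 and build mm9 stand in the submitters' processing notes; the loci in the table, however, overlapped GRCm38 genes (GENCODE vM21) for all 36 members and were identical for 29. Which aligner and software gave the FPKM is not given in the sources used here.

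Each gene ID kept 1 row. A gene was tested if 3 or more libraries had 1 FPKM or more. Left out were 17 genes listed at 0 in a library although 7 or more libraries, 1 of them in the same group, reached 5 FPKM; 12251 remained. Scale factors between libraries, 0.897 to 1.18, came from a mean of log ratios after trimming 30% of ratios and 5% of levels. The design had named limma for files without counts, and log2(scaled FPKM + 1) was tested two-sided in R 4.3.3 by limma 3.58.1 (trend, 4 group means, Benjamini-Hochberg over all genes). Fold changes on this scale understate those of low genes. The procedure was tested on simulated data. The labels do not name litters, so p-values measure the spread between these libraries.

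The members and lists were chosen with earlier results of these data known. By the rule for named genes, values per library were due for called members with a log2 fold change of at least 0.5 in size, for Wars and for Atf4; they are given for every member called within a diet. Of other lists, up to 4 genes called on chow with the smallest adjusted p were named; Sesn2, Ddit3, Ppp1r15a and uncalled members given with values were added after their values were seen. Marker lists are given as counts and sums. Promoter windows came from RefSeq by symbol, with Mars under Mars1; 1 further match is not reported here. Figures used Python 3.11.15 and matplotlib 3.10.9.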

Additional observations from a re-analysis of the deposited data

Results flagged for a closer look

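In 3 of 72 gene and group sets of 4 libraries, 1 library stood far from the other 3; about 1 in 20 such sets would be marked by chance. Iars, the isoleucyl-tRNA synthetase, was at 18.5 scaled FPKM in TRACK 4, against 14.3 to 14.4 in the other TRACK libraries. Eprs, which charges glutamate and proline tRNAs, was at 16.3 in TRACK-VAD 2, against 21.3 to 22.0 in the other TRACK-VAD libraries. Fars2 was at 20.9 in TRACK-VAD 2, against 24.9 to 25.5 in the others. TRACK-VAD 2 is 1 of the 2 libraries whose values slope most with transcript length; the part of this in Eprs and Fars2 was not tested.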

How the results depend on the processing

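Across 28 alternatives, results on single called members kept direction and call in 582 cases, kept direction but missed the threshold in 124 and reversed in 2: Lars2 in TRACK-VAD versus WT-VAD (log2 fold change 0.93 in the authors' deposited table) and Hars averaged over diets (0.0453 without scaling). The cause was not tested. With all libraries 6 members were called in TRACK versus WT; leaving out 1 library gave 0 (without WT 3) to 8 (without TRACK-VAD 2), with 1 without WT 1 and 3 without TRACK 2 or TRACK 4, and sample weights and the authors' deposited table gave 12 each. In TRACK-VAD versus WT-VAD 8 were called; leaving out 1 library gave 3 (without TRACK-VAD 1, WT-VAD 2 or WT-VAD 3) to 11 (without TRACK-VAD 3), with 5 without TRACK-VAD 2 or WT-VAD 1. There 2 were called with only the compared groups fitted, 0 with lane as a covariate, 4 with sample weights, and, in alternatives chosen after seeing the data, 3 without TRACK-VAD 1 and 2 and 5 with the transcript-length slope as a covariate. Averaged over diets 13 were called, and 7 with lane as a covariate. Without scaling the median of all genes moved to 0.16 on chow and 0.18 on the deficient diet, and calls to 1819 higher and 445 lower on chow and 2660 and 558 on the deficient diet, against 1079 and 1005 and 1380 and 1327 with scaling. The cytosolic medians were then 0.17, 0.31 and, averaged over diets, 0.24, and the mitochondrial medians 0.019, 0.078 and 0.0276; cytosolic members called were 4 higher on chow and 8 higher and 1 lower on the deficient diet, and mitochondrial members 1 lower on chow and 1 higher on the deficient diet. The mitochondrial median of TRACK-VAD versus WT-VAD ran from −0.18 (without WT-VAD 3) to −0.0661 when 1 library was left out, and that of TRACK-VAD versus TRACK became 0.0567 without TRACK-VAD 1 and 2. With the replicate number as a block 5, 8 and 10 members were called in TRACK versus WT, TRACK-VAD versus WT-VAD and the average, against 6, 8 and 13. The labels do not say that equal numbers pair mice. Deviations of the 19 same-number pairs correlated between −0.14 and 0.38, with 6 above 0.1. Pairs of unequal number were not compared, so whether equal numbers share more than a number cannot be told. Depth is unknown, so what depth limits cannot be stated.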
